A study of Homo sapiens with 9 samples.

Results

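The genes considered here encode the adducin and spectrin membrane skeleton, and they were picked as 9 symbols from the 60199 rows of the count table: the adducins ADD1, ADD2 and ADD3, the spectrins SPTAN1 and SPTBN1, the protein 4.1 genes EPB41, EPB41L1 and EPB41L2, and dematin, DMTN. The list was selected on ADD2, which had no count in M1B26, so the values of ADD2 in that line are given as a description and carry no test. The other 8 genes are called its partners below, and all 9 passed the filter on low counts. Poly-A RNA was sequenced from 9 cultures, 3 each of CT, MC26 and M1B26. CT is the untreated parental line MCF10A, a nonmalignant human mammary epithelial line in which CDKN2A is deleted and MYC amplified. MC26 and M1B26 are derivatives kept for a long time in BMP2 and IL6. The first came from MCF10A cells that had not been sorted, and the second from cells positive for BMPR1B, a BMP receptor, that were then expanded from soft-agar clones. The sample labels give 5 ng/microliter for BMP2 and 10 ng/microliter for IL6 in both derived lines, and the study's methods give other concentrations. Cytokine exposure, sorting, cloning and any batch of library preparation cannot be told apart between these lines.

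Total counts per library ran from 21425118 in CT replicate 2 to 80076597 in CT replicate 3. Log2 levels correlated across genes at r = 0.985 to 0.998 within a line and at r = 0.927 to 0.973 across lines, with no p since genes are not independent. Of 10 mammary epithelial markers, 9 stood at 1 or more CPM (counts scaled to a common library size with TMM factors) in every library of each line. Of 8 erythroid markers, 6 were at 0 in all libraries, among them HBB and ALAS2. The list summed to 1.88 to 2.44 CPM in CT, 0.026 to 0.174 CPM in MC26 and 0.331 to 0.676 CPM in M1B26. Of 5 neuronal markers, RBFOX3 and GAP43 were at 0 in CT and MC26, and the list summed to 4.94 to 5.37 CPM in CT, 0.659 to 1.44 CPM in MC26 and 0.994 to 1.62 CPM in M1B26. The 7 fibroblast markers summed to 37.4 to 37.8, 17.1 to 56.8 and 28.5 to 39.9 CPM in the same order. The 4 leukocyte markers summed to 6.9 to 11, 9.72 to 17.8 and 33.8 to 47.9 CPM, with CD3E at 0 everywhere. The part of these marker differences in the results below was not tested. In bulk RNA, fewer cells with a transcript and less of it per cell cannot be told apart.

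The membrane skeleton is a meshwork under the plasma membrane in which spectrin tetramers of alpha and beta chains join short actin filaments. Adducins form heteromers, cap the fast-growing ends of these filaments and recruit spectrin to them, protein 4.1 strengthens the spectrin-actin contact and ties it to membrane proteins, and dematin bundles actin at the same junction. ADD1 and ADD3 are expressed in most tissues, whereas ADD2 is known mainly from red cells and brain, and in epithelia adducin and spectrin stabilize the lateral membrane.

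ADD2 lies on the minus strand of chromosome 2 at 70607618 to 70768225 in GRCh38. The promoter sequences are shown because the finding turns on a gene with no transcript in 1 line, and they let the start regions of ADD2 be set beside that of ADD1, which was transcribed in all 3 lines. Each window runs from 250 bases before to 50 bases after a start listed by RefSeq on GRCh38.p14, read 5' to 3' on the gene's strand, with CG dinucleotides in capitals. The windows are chr2:70768151-70768450 (minus strand, ADD2 upstream start), chr2:70767666-70767965 (minus strand, ADD2 downstream start) and chr4:2843594-2843893 (plus strand, ADD1).
ADD2 upstream start: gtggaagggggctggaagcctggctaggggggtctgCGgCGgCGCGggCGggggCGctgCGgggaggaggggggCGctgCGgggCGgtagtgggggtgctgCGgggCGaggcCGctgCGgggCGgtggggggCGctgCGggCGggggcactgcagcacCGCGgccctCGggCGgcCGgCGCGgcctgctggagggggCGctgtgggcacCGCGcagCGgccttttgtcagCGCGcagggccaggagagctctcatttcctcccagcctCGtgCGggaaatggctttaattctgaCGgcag
ADD2 downstream start: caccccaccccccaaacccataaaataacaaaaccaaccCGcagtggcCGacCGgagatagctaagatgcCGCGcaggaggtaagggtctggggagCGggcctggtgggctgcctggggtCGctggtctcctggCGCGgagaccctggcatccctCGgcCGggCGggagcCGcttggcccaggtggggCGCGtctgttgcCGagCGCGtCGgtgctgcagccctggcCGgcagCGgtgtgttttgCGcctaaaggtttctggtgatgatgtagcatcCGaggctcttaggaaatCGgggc
ADD1: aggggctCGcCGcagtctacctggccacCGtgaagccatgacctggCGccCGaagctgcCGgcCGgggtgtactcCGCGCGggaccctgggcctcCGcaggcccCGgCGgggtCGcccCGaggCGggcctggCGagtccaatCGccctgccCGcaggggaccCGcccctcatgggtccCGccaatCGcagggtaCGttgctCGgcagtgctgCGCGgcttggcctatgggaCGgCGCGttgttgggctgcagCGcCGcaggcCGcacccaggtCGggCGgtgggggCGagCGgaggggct

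These windows held 34 and 24 CG dinucleotides for ADD2 and 36 for ADD1, against a median of 14 over 35116 RefSeq promoter windows. Fewer CG dinucleotides were found in 84.4% of all windows than in the upstream window of ADD2, and in 66.1% than in the downstream one. The GC box letters GGGCGG, searched on both strands, occurred 5 times and 1 time in the ADD2 windows and 2 times in the ADD1 window, and 45.0% of all windows held them. The E-box letters CACCTG occurred 1 time, in the downstream ADD2 window, and 20.6% of all windows held them. Neither TATAAA nor AGATAA, held by 11.5% and 10.3% of all windows, occurred in any of the 3 sequences. RefSeq windows for 7 partners brought the total examined to 18, with 2 to 53 CG dinucleotides. A match of letters is a description of the window and not of a bound site, and no methylation was measured here.

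ADD2, beta-adducin, was read in every CT and MC26 library and in no M1B26 library. Its counts were 2369, 742 and 2672 in the CT replicates, 1519, 1505 and 1445 in the MC26 replicates, and 0, 0 and 0 in the M1B26 replicates. Scaled, these were 33.8, 32.4 and 32.6 CPM in CT and 37.8, 39.3 and 34.0 CPM in MC26. Libraries of the same line lay close together, and the M1B26 libraries stood apart from all 6 others. None of the 144407628 counts of M1B26 fell in ADD2, and with a floor of 3 counts per library its mean was at least 509-fold lower than in CT and at least 572-fold lower than in MC26. Floors and intervals cover counting and replicate error in these cultures only. In the comparison of MC26 with CT, which did not choose the list, ADD2 differed by 0.17 on the log2 scale (SE 0.080, edgeR adjusted p = 0.130), and although no MC26 library lay below a CT library the difference did not pass the threshold of 0.05.

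The absence of ADD2 counts was compared with all other genes of the table. With at least 100 counts in each CT and MC26 library, 10620 genes could have been at 0 in all 3 M1B26 libraries. ADD2 was the 1 gene that was. That ADD2 met this rule was fixed by its selection, so the counts of genes are a description with no test. The genes just outside this limit, chosen after their values were seen, were SHISAL1 with 15 counts over the M1B26 libraries and MAP1B, which encodes a microtubule-binding protein, with 19. SHISAL1 had 107 to 476 counts in CT and 128 to 264 in MC26, and MAP1B had 188 to 697 and 298 to 510. No gene of 10700 was at 0 in MC26 only by the same rule, and no gene of 11097 in CT only. With the minimum lowered to 20 counts, 3 genes of 12672 were at 0 in M1B26, namely ADD2, LRIF1 and ZNF302. At the same minimum no gene of 12747 was at 0 in MC26 only, and 2 genes of 13026 were at 0 in CT only, ALDH1A1 and PSMC1P5. With at least 100 counts in the other lines and up to 3 counts in all allowed, ADD2 was again the 1 gene in M1B26, and 1 gene, ABCC9, met the rule in CT.

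**Figure D1:**
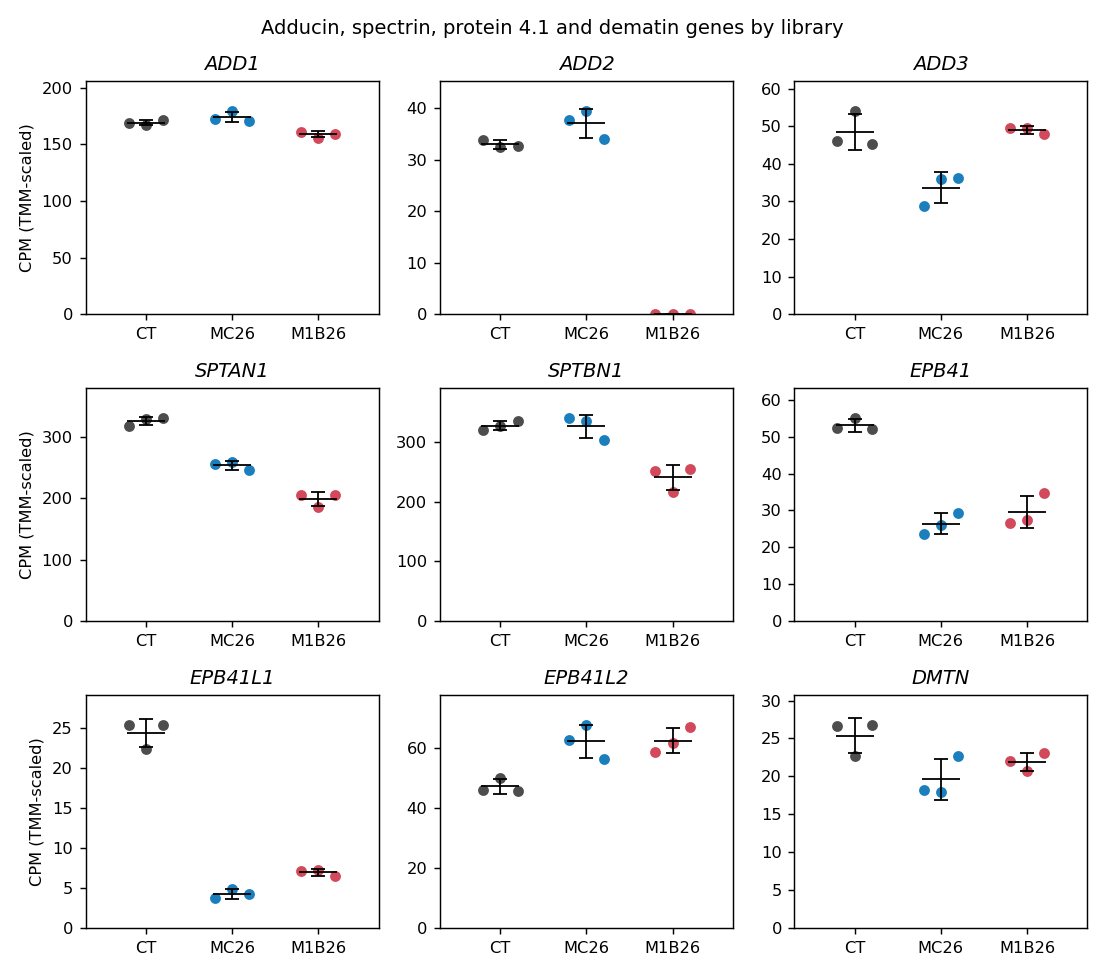
Level of each of the 9 genes in CPM (TMM-scaled, vertical axes from 0) in the 3 libraries of CT, MC26 and M1B26. Points are libraries, the long bar is the mean and the error bar the SD (n = 3), and ADD2 is at 0 in all M1B26 libraries while ADD1 lies between 156 and 179 CPM in all 9.

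The first question was whether the other adducins were higher where ADD2 was not read. ADD1, alpha-adducin, the most abundant adducin per kb of exon in each line, stood at 169, 167 and 172 CPM in CT, 173, 179 and 171 CPM in MC26, and 161, 156 and 160 CPM in M1B26. The M1B26 libraries were the lowest and overlapped with neither CT nor MC26. The change from CT to M1B26 was -0.09 on the log2 scale (SE 0.055, 95% interval -0.21 to 0.03, edgeR adjusted p = 0.199), that from CT to MC26 was 0.04 (adjusted p = 0.595 in edgeR), and that from MC26 to M1B26 was -0.13 (interval -0.25 to -0.01, adjusted p = 0.0819 in edgeR). None of these passed the threshold. With libraries scaled by total counts alone, the change from CT to M1B26 was -0.19 and passed (adjusted p = 0.0203 in edgeR), and the difference between M1B26 and MC26 passed without CT replicate 2 (adjusted p = 0.0356) and by DESeq2 (adjusted p = 0.0185).

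ADD3, gamma-adducin, stood at 46.2, 53.9 and 45.3 CPM in CT, 28.9, 35.9 and 36.1 CPM in MC26, and 49.6, 49.5 and 47.9 CPM in M1B26. MC26 lay below both other lines without overlap, and the M1B26 libraries lay within the range of CT. ADD3 fell by 0.52 on the log2 scale in MC26 (SE 0.097, edgeR adjusted p = 0.00167) and was 0.54 higher in M1B26 than in MC26 (SE 0.097, edgeR adjusted p = 0.00142). From CT to M1B26 it changed by 0.02 (95% interval -0.19 to 0.23, edgeR adjusted p = 0.884), an interval that included 0.

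Adding ADD1, ADD2 and ADD3 gave 249, 253 and 250 CPM in CT, 239, 254 and 241 CPM in MC26, and 211, 205 and 207 CPM in M1B26. The M1B26 sums lay below those of both other lines. The means were 251 ± 2.20 CPM (SD, n = 3) in CT, 245 ± 8.30 CPM in MC26 and 208 ± 2.78 CPM in M1B26, and the ratio of M1B26 to CT was 0.830. ADD1 and ADD3 alone summed to 218 ± 2.79, 208 ± 6.78 and 208 ± 2.78 CPM. Per kb of exon, ADD1 and ADD3 together stood highest in CT and higher in M1B26 than in MC26. ADD1 was at 13.1 CPM per kb in MC26 and 12.0 in M1B26, and ADD3 at 5.14 and 7.49. ADD2 made up 13.1% ± 0.400 of adducin CPM in CT and 15.1% ± 0.881 in MC26, or 11.4% and 13.8% when each gene was divided by its exonic length.

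**Figure D2:**
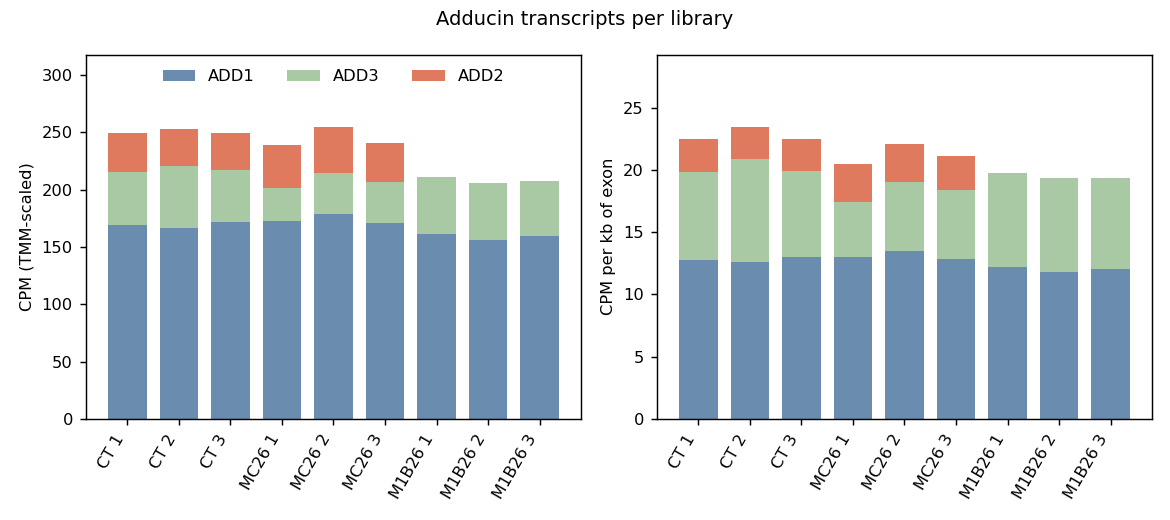
Stacked bars from 0 of ADD1, ADD3 and ADD2 in each library, in CPM (TMM-scaled, left) and in CPM per kb of exon (right). The ADD2 segment is absent from the 3 M1B26 bars, whose total is 205 to 211 CPM against 239 to 254 CPM in the 6 other libraries.

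To read these values against full replacement, the rise that would equal the mean CPM of ADD2 was computed for each of the other adducins. Against CT it was 0.26 on the log2 scale for ADD1 and 0.75 for ADD3, and the upper ends of the measured 95% intervals were 0.03 and 0.23. Per kb of exon the rises needed were 0.27 and 0.43. Against MC26 the rise needed was 0.28 for ADD1, whose interval ended at -0.01, and 1.07 for ADD3, or 0.65 per kb, with a measured interval of 0.33 to 0.75. Against CT, the intervals of ADD1 and ADD3 ended below the rise needed from either gene alone. Against MC26 the interval of ADD3 held the per-kb amount but not the CPM amount. A rise shared by ADD1 and ADD3 was not tested, and the mean of ADD2 was taken without its spread. Protein was not measured in these files.

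The spectrin chains were lower in M1B26, not higher. SPTAN1, the alpha-II spectrin chain of non-erythroid cells, stood at 318, 330 and 330 CPM in CT, 256, 258 and 245 CPM in MC26, and 204, 185 and 205 CPM in M1B26. The 3 lines formed 3 ranges that did not overlap. SPTAN1 fell by 0.36 in MC26 (SE 0.063, edgeR adjusted p = 0.00110) and by 0.72 in M1B26 (SE 0.063, edgeR adjusted p = 7.43e-06), and M1B26 lay 0.35 below MC26 (the log2 change was -0.35, edgeR adjusted p = 0.00139). Its mean CPM fell by 39.2% from CT to M1B26.

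SPTBN1, the beta-II chain that pairs with alpha-II spectrin, stood at 320, 327 and 335 CPM in CT, 340, 335 and 304 CPM in MC26, and 251, 216 and 254 CPM in M1B26. CT and MC26 overlapped and M1B26 lay below both. It fell by 0.44 on the log2 scale in M1B26 against CT (SE 0.077, edgeR adjusted p = 7.49e-04) and differed by -0.44 from MC26 (SE 0.077, edgeR adjusted p = 0.00127). The change from CT to MC26 was -0.01 (95% interval -0.17 to 0.16, edgeR adjusted p = 0.966).

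The 3 protein 4.1 genes went in both directions. EPB41, protein 4.1R, stood at 52.3, 55.0 and 52.0 CPM in CT, 23.7, 26.2 and 29.3 CPM in MC26, and 26.6, 27.4 and 34.6 CPM in M1B26, so both derived lines lay below CT and overlapped with each other. It fell by 1.01 in MC26 (SE 0.108, edgeR adjusted p = 4.51e-05) and by 0.84 in M1B26 (SE 0.107, edgeR adjusted p = 9.74e-05). The difference between the derived lines was 0.16 (95% interval -0.08 to 0.40, edgeR adjusted p = 0.256).

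EPB41L1, protein 4.1N, the form known from neurons, had the largest log2 change of the 8 partners in both comparisons with CT. It stood at 25.4, 22.4 and 25.3 CPM in CT, 3.68, 4.86 and 4.26 CPM in MC26, and 7.05, 7.29 and 6.44 CPM in M1B26, with no overlap between any of the lines. It fell by 2.52 in MC26 (SE 0.114, edgeR adjusted p = 1.73e-07) and by 1.82 in M1B26 (SE 0.109, edgeR adjusted p = 6.16e-07), and M1B26 was 0.70 higher than MC26 (SE 0.116, edgeR adjusted p = 9.08e-04). The neuronal marker list also summed highest in CT, at the values given above, where 1 of its 5 markers stood at 1 or more CPM in every library. RBFOX3 and GAP43 went the other way, at 0 in CT and read in M1B26. The part of these markers in this result was not tested.

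EPB41L2, protein 4.1G, a widely expressed form, was the 1 partner that was higher in both derived lines than in CT. It stood at 46.0, 49.9 and 45.4 CPM in CT, 62.4, 67.5 and 56.4 CPM in MC26, and 58.6, 61.6 and 66.8 CPM in M1B26. It rose by 0.40 in MC26 (SE 0.082, edgeR adjusted p = 0.00304) and by 0.41 in M1B26 (SE 0.082, edgeR adjusted p = 0.00192). The derived lines overlapped and differed by 0.01 (95% interval -0.17 to 0.19, edgeR adjusted p = 0.957). ADD2 was read in MC26 at 34.0 to 39.3 CPM, and a link between EPB41L2 and ADD2 was not tested.

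DMTN, dematin, stood at 26.6, 22.7 and 26.8 CPM in CT, 18.2, 17.9 and 22.7 CPM in MC26, and 22.0, 20.7 and 23.1 CPM in M1B26. All 3 lines overlapped. It fell by 0.37 in MC26 (SE 0.106, edgeR adjusted p = 0.0169), a call that was lost without CT replicate 1 or 3 or without MC26 replicate 1 or 2 (adjusted p = 0.0606 to 0.0782). In M1B26 against CT it changed by -0.21 (95% interval -0.45 to 0.02, edgeR adjusted p = 0.115). That change passed with scaling by total counts (adjusted p = 0.0297) and without CT replicate 2 (adjusted p = 0.0439). The derived lines differed by 0.16 (edgeR adjusted p = 0.257), which passed without MC26 replicate 3 (adjusted p = 0.0403).

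**Figure D3:**
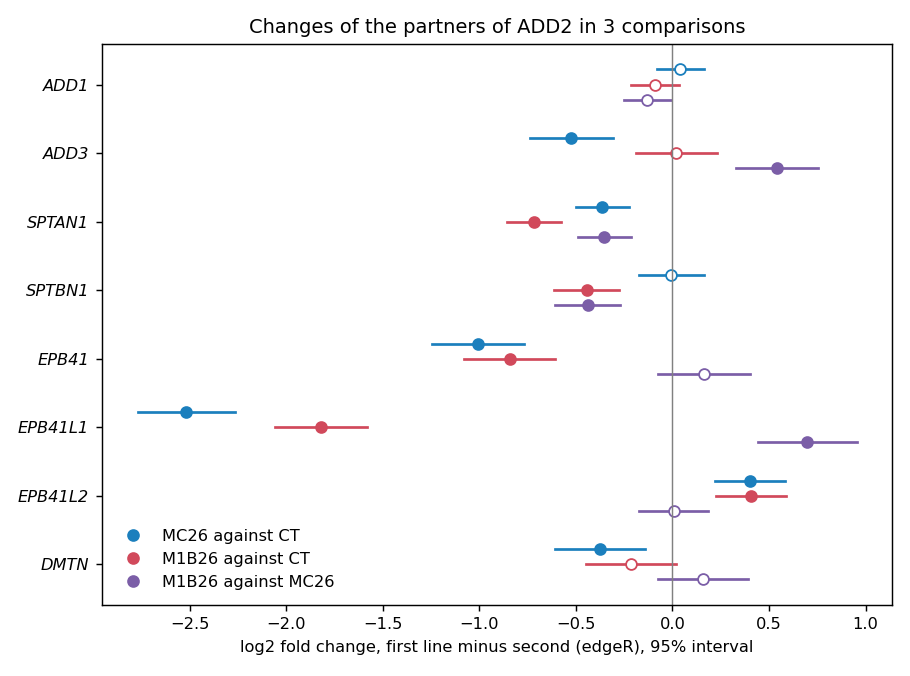
Log2 fold change (horizontal axis, first line minus second, edgeR) of the 8 partners of ADD2 with its 95% interval in the 3 comparisons, filled where the adjusted p was under 0.05. In M1B26 against CT the intervals of ADD1, ADD3 and DMTN span 0, EPB41L2 lies above it and SPTAN1, SPTBN1, EPB41 and EPB41L1 lie below it.

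Counted together, 5 of the 8 partners changed in M1B26 against CT, 1 higher and 4 lower, when 48.9% of the 15717 genes tested changed, 25.2% higher and 23.7% lower. In MC26 against CT, 6 changed, 1 higher and 5 lower, against 38.7% of all genes, 18.8% higher and 19.9% lower. Between M1B26 and MC26, 4 differed, with ADD3 and EPB41L1 higher in M1B26 and SPTAN1 and SPTBN1 lower, against 39.5% of all genes, 21.2% higher and 18.4% lower. The median log2 change of the partners was -0.33, -0.37 and 0.08 in this order, and that of all genes tested was 0.00 in each. The partners called lower against CT made up a larger share of the 8 than of all genes, and no test of the list was made. With scaling by total counts, ADD1 and DMTN were also called lower in M1B26 than in CT, and higher genes made up 39.6% of all calls in that comparison instead of 51.5%, and 35.8% instead of 48.5% in MC26 against CT. The comparisons with CT share its libraries, so their values are given side by side and not as 2 separate observations.

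Per kb of exon, the order of the genes also differed between the lines. Lengths were those of all annotated exons of a gene merged, and the isoforms in use were not determined. Levels of different genes per kb are therefore approximate. In CT the levels ran from SPTAN1 at 19.8 ± 0.425 CPM per kb (SD, n = 3) over SPTBN1 at 17.7, ADD1 at 12.8, ADD3 at 7.41, DMTN at 5.60 and EPB41L2 at 4.56 to EPB41 at 2.66, ADD2 at 2.60 and EPB41L1 at 2.52, and the last 3 overlapped with their neighbours in this order. In MC26 SPTBN1 led at 17.7 ± 1.06, ahead of SPTAN1 at 15.4 and ADD1 at 13.1, EPB41L2, ADD3 and DMTN followed with overlapping neighbours, and ADD2 at 2.92 stood above EPB41 at 1.32 and EPB41L1 at 0.441. In M1B26 SPTBN1 at 13.0 ± 1.14, SPTAN1 at 12.0 ± 0.681 and ADD1 at 12.0 ± 0.207 overlapped with their neighbours. The spectrin chains, which exceeded ADD1 in every CT and MC26 library, overlapped with it per kb in M1B26.

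Genes whose log2(CPM + 0.1) followed ADD2 most closely over the 9 libraries were named by a rule, as a description with no p, since ADD2 was chosen for its pattern and the points fall into 2 clusters. Among 10634 genes the highest Pearson r was that of GLE1, at 0.998, followed by MAP1B and ADGRG2 at 0.993, MCM3AP at 0.991 and SAMD4A at 0.990. The likeness is one of shape and not of size. GLE1, an mRNA export factor, stood at 61.2 ± 0.254 CPM in CT, 61.5 ± 0.676 CPM in MC26 and 49.0 ± 0.241 CPM in M1B26, whereas MAP1B stood at 7.58 ± 1.35, 10.4 ± 2.98 and 0.132 ± 0.0359. ADGRG2, an adhesion G protein-coupled receptor, went from 16.2 and 17.2 CPM to 3.96 CPM in M1B26.

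The wider membrane skeleton was counted in 8 groups of 49 genes, of which 48 were in the table and 43 passed the filter on low counts. SPTBN4 was not analysed here. In M1B26 against CT, 23 of the 43 changed, 5 higher and 18 lower, with a median of -0.16 on the log2 scale. Of all genes 48.9% changed, 25.2% higher and 23.7% lower. In MC26 against CT 18 changed, 7 higher and 11 lower, with a median of -0.04, beside 38.7%, 18.8% and 19.9% of all genes. Between M1B26 and MC26 19 differed, 6 higher and 13 lower, beside 39.5%, 21.2% and 18.4%. The shares changed were near those of all genes. Lower genes made up a larger share of the 43 than of all genes, and no test of the list was made.

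Other spectrins and ankyrins were unevenly affected. SPTB, the erythroid beta chain, was near the limit of detection, with 17, 4 and 25 counts in CT, 51, 13 and 20 in MC26, and 4, 1 and 6 in M1B26. It was called higher in MC26 than in CT (1.43, SE 0.490, edgeR adjusted p = 0.0391), and M1B26 lay below MC26 (-3.12, SE 0.607, edgeR adjusted p = 0.00235), while against CT its change in M1B26 was -1.69 (adjusted p = 0.0559 in edgeR). The first of these was 0.67 without MC26 replicate 1 (adjusted p = 0.260) and was also lost without any 1 of the CT libraries or without M1B26 replicate 1 (adjusted p = 0.0560 to 0.111), by DESeq2 (adjusted p = 0.0599) and with the 6 libraries compared alone (adjusted p = 0.0569). The last passed with no filter on low counts (adjusted p = 0.00899), with total counts (adjusted p = 0.0415) and without MC26 replicate 1 or 2 (adjusted p = 0.0135 and 0.0411). SPTBN5 was lower in both derived lines, from 0.514 CPM to 0.300 and 0.316 (adjusted p = 0.0457 and 0.0480 in edgeR), and these calls were lost without any 1 of 7 libraries in MC26, all but CT replicate 2 and MC26 replicate 2 (adjusted p = 0.0537 to 0.194), and of 8 in M1B26, all but CT replicate 2 (adjusted p = 0.0554 to 0.212). They were also lost by DESeq2 (adjusted p = 0.190 and 0.212) and with no filter on low counts (adjusted p = 0.0959 and 0.113), and the one in MC26 with the 6 libraries compared alone (adjusted p = 0.0541). SLC4A1, the red-cell anion exchanger to which ankyrin binds, was at 0 in every library, and with EPB42, GYPC and EPB41L3 did not pass the filter.

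Ankyrins join spectrin to membrane proteins. ANK3, ankyrin-G, the epithelial and neuronal form, stood at 15.2, 15.9 and 12.1 CPM in CT, 12.2, 10.7 and 11.3 CPM in MC26, and 20.1, 15.9 and 20.3 CPM in M1B26. It rose by 0.39 in M1B26 against CT (SE 0.126, edgeR adjusted p = 0.0235), although the lowest M1B26 library overlapped with CT, and by 0.72 against MC26 (SE 0.128, edgeR adjusted p = 0.00141). The first of these calls was lost without CT replicate 3 or M1B26 replicate 1 or 3 (adjusted p = 0.0789 to 0.0955) and with total counts (adjusted p = 0.0798). ANK2, ankyrin-B, fell by 0.44 in MC26 (edgeR adjusted p = 0.0269), a call lost without CT replicate 1 or 2 or MC26 replicate 1 or 2 (adjusted p = 0.0660 to 0.103). Its change in M1B26 was 0.09 (edgeR adjusted p = 0.615). ANK1, ankyrin-R, known from red cells, was low everywhere, with means of 1.54 CPM in CT, 0.180 CPM in MC26 and 0.412 CPM in M1B26. It fell by 3.10 in MC26 (edgeR adjusted p = 9.49e-05) and fell by 1.94 in M1B26 (edgeR adjusted p = 5.55e-04).

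Of the other 4.1 family members, EPB41L4A went from 10.9, 10.3 and 8.40 CPM in CT to 0.746, 0.810 and 1.51 CPM in MC26 and 1.06, 0.781 and 0.775 CPM in M1B26. Its log2 change was -3.25 in MC26 and -3.49 in M1B26 (SE 0.241 and 0.243, edgeR adjusted p = 3.50e-06 and 1.59e-06), the largest among the tested genes of the list in both comparisons with CT, and the derived lines overlapped. EPB41L4B fell by 0.62 in M1B26 (SE 0.093, edgeR adjusted p = 2.87e-04) and changed by -0.13 in MC26 (adjusted p = 0.276 in edgeR). EPB41L5 changed by -0.20 in M1B26 and by -0.04 in MC26 and passed in neither (adjusted p = 0.15 and 0.810 in edgeR), although the former passed with total counts (adjusted p = 0.0400).

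Among the kinases that phosphorylate adducins, 7 of 8 changed in M1B26 against CT, 6 of them lower, beside 48.9% of all genes changed and 23.7% lower. In MC26 5 of 8 changed, 4 of them lower, beside 38.7% and 19.9%. FYN, a Src-family tyrosine kinase, had the largest change of the group and was higher, with means of 0.636 CPM in CT, 1.75 CPM in MC26 and 1.32 CPM in M1B26 (log2 change 1.44 and 1.03, edgeR adjusted p = 9.92e-04 and 0.00533). In the actin, capping and side-binding group, 7 of 13 changed in M1B26, 3 higher and 4 lower, which is near the shares of all genes (48.9%, 25.2% and 23.7%). Within it TMOD1, a tropomodulin that caps the slow-growing filament end, fell by 2.56 (SE 0.316, edgeR adjusted p = 7.87e-05), from 1.23 CPM to 0.207. In M1B26 against CT, 1 of 4 membrane anchors, 1 of 4 linkers of the ezrin and merlin group and 1 of 5 proteases changed, each lower. These are smaller shares than the 48.9% of all genes changed. SLC2A1, the glucose transporter GLUT1, fell by 0.44 (edgeR adjusted p = 0.00691). NF2, merlin, fell by 0.41 (edgeR adjusted p = 8.97e-04), and CAPN2, a calpain that cleaves spectrin, by 0.44 (edgeR adjusted p = 0.00159).

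**Figure D4:**
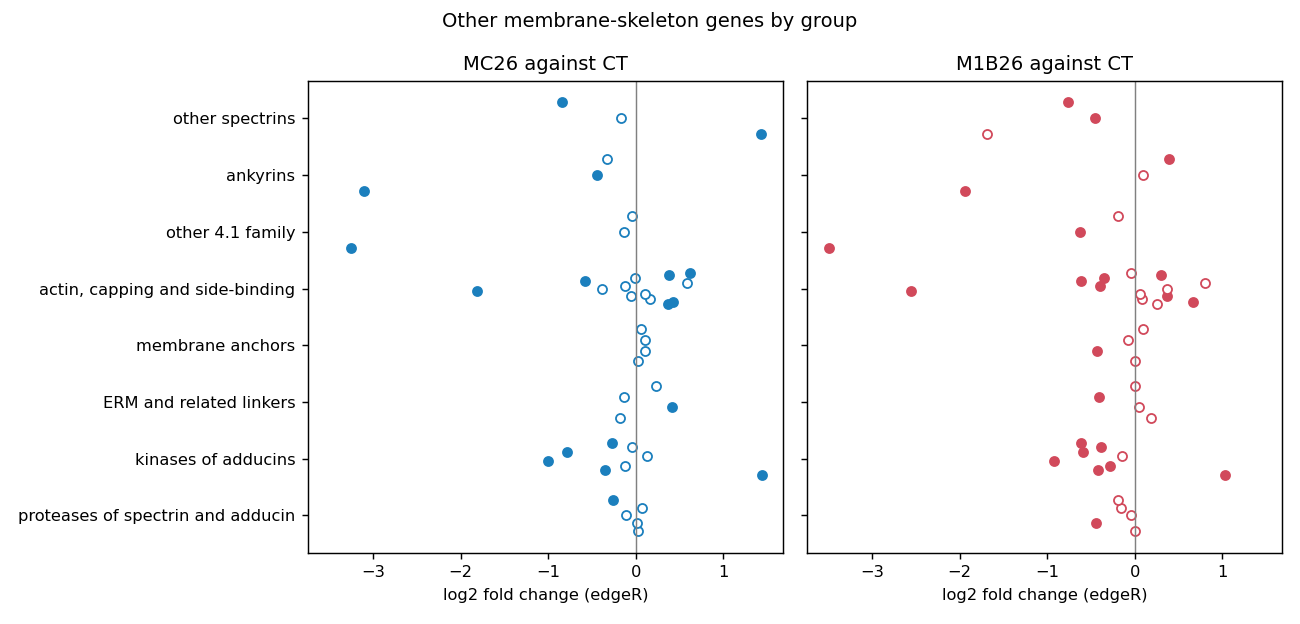
Log2 fold change (horizontal axes, edgeR) of the 43 tested genes of the wider membrane-skeleton list, 1 point per gene, by group, in MC26 against CT (left) and M1B26 against CT (right), filled where the adjusted p was under 0.05. In the kinase row on the right, 6 filled points lie below 0 and FYN above it.

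The genes around ADD2 were then examined, to see whether its 0 counts extended along the chromosome. The annotation places 61 genes with a start within 1 Mb of the start of ADD2, of which 39 were matched to the table and 20 passed the filter. In M1B26 against CT 16 of the 20 changed, 4 higher and 12 lower, beside 48.9% of all genes changed, 25.2% higher and 23.7% lower. The median log2 change of the 20 was -0.28, and that of all genes tested was 0.00. In MC26 against CT 10 of the 20 changed, 3 higher and 7 lower, beside 38.7%, 18.8% and 19.9% of all genes. Between M1B26 and MC26 7 of the 20 differed, 2 higher and 5 lower, beside 39.5%, 21.2% and 18.4%. In both comparisons with CT, lower genes made up a larger share of the 20 than of all genes, and no test of the neighbours was made. All 19 neighbours with at least 1 CPM in CT were read in M1B26, with a lowest mean of 2.42 CPM.

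The expressed genes nearest to ADD2 were read in every library. TGFA, which encodes transforming growth factor alpha, an EGF receptor ligand, starts at -214 kb from the start of ADD2, toward lower coordinates. It stood at 33.3, 36.3 and 33.6 CPM in CT, 77.8, 67.9 and 52.6 CPM in MC26, and 64.0, 62.5 and 72.8 CPM in M1B26. Both derived lines lay above CT and overlapped with each other, with rises of 0.94 in MC26 and 0.95 in M1B26 (SE 0.124 and 0.123, edgeR adjusted p = 1.83e-04 and 1.09e-04). FAM136A, at -466.2 kb, a mitochondrial protein gene, stood at 70.6 ± 5.03 CPM in CT, 56.5 ± 1.74 CPM in MC26 and 57.8 ± 3.50 CPM in M1B26, with changes of -0.32 and -0.29 (edgeR adjusted p = 0.00555 and 0.00711). On the other side, at 180.4 kb, the antisense transcript ATP6V1B1-AS1 stood at 1.21 ± 0.0680 CPM in CT, 2.0 ± 0.229 CPM in MC26 and 2.42 ± 0.226 CPM in M1B26. Its rises were 0.71 and 0.99 (edgeR adjusted p = 0.00547 and 4.75e-04). It overlaps ATP6V1B1, whose own counts fell in both derived lines, as given below. The strand setting of the counting is not given in the sources used here, so reads of either gene may have been counted for the other. TEX261, at 226.6 kb, stood at 107 ± 6.29, 108 ± 2.46 and 92.8 ± 1.57 CPM and fell by 0.21 in M1B26 (edgeR adjusted p = 0.0165), a call lost without CT replicate 1 or 3 or M1B26 replicate 2 (adjusted p = 0.0584 to 0.0635) and with no filter on low counts (adjusted p = 0.0780).

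**Figure D5:**
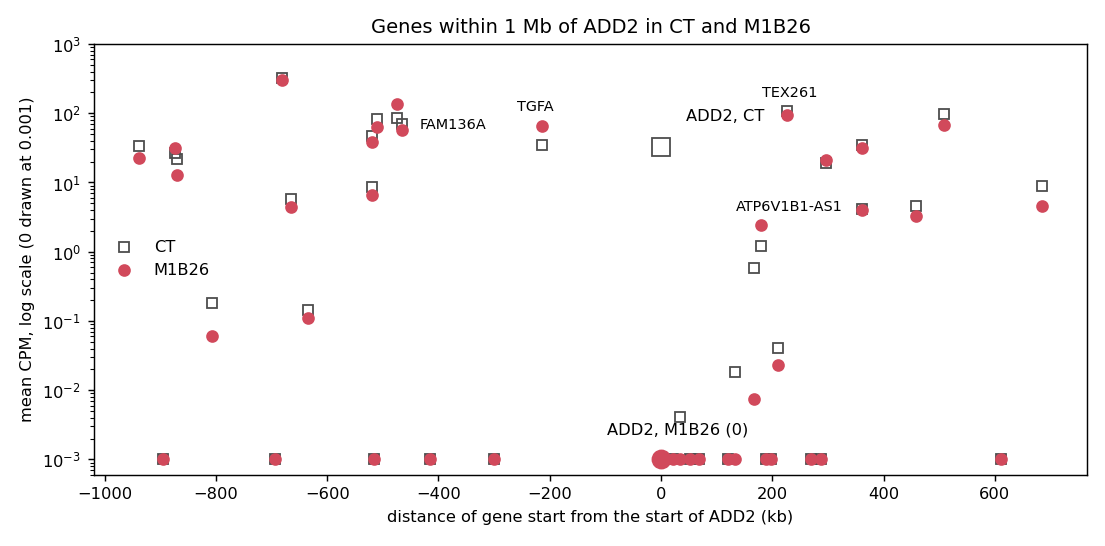
Mean CPM (vertical axis, log scale, values of 0 drawn at 0.001) of the 39 matched genes within 1 Mb of ADD2 by the distance of their start from that of ADD2 in kb, as open squares in CT and filled circles in M1B26. The larger symbols mark ADD2, at 32.9 CPM in CT and 0 in M1B26, and TGFA and TEX261 on either side are read in both lines.

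Between TGFA and ATP6V1B1-AS1 lies a stretch of 387.6 kb that holds ADD2 and 9 other annotated genes in full, of which 5 were in the table. Their highest value was 1 count in 1 library. ATP6V1B1 and VAX2 start inside the stretch and run past the start of ATP6V1B1-AS1, and they are named here after their values were seen. ATP6V1B1, a subunit gene of the vacuolar proton pump that starts at 167.7 kb, had 36, 8 and 71 counts in CT, 0, 0 and 0 counts in MC26, and 1, 0 and 0 counts in M1B26. Both derived lines lay below CT without overlap and were called lower (edgeR adjusted p = 3.24e-04 and 2.18e-04), so its near-absence was shared by MC26, in which ADD2 was read. VAX2, a homeobox gene, had 3, 0 and 1 counts in CT and 0 in all 6 other libraries. Inside the stretch the table therefore gives, besides ADD2, 1 gene that passed the filter, ATP6V1B1, and it cannot show how far the 0 counts of ADD2 extend.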

How the data were processed

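The measurements were poly-A RNA-seq read counts per gene symbol in 9 libraries, grouped by the sample titles. Alignment by the authors used STAR 2.7.3a, GRCh38 and GENCODE v33, and the deposited table holds raw counts. Salmon 1.1.0 is also named in their methods, for protein-coding genes. The table holds whole numbers and includes non-coding genes. The counting program, its strand setting and its handling of reads with several alignments are not given in the sources used here.

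For the tests, edgeR 4.0.16 was run under R 4.3.3. The filter filterByExpr, at a minimum count of 10, retained 15717 genes, and libraries were scaled by TMM. One quasi-likelihood model of all 9 libraries, with line as the single factor, was tested with glmQLFTest, 2-sided, and a Benjamini-Hochberg adjusted p under 0.05 over all genes tested was called changed. The SE was the absolute log2 fold change divided by the square root of F. The procedure was tested on simulated data. DESeq2 1.42.0 was an alternative, beside other scaling, filters, leaving out each library and a replicate block. Exonic lengths, taken over the merged exons of all annotated isoforms, and positions came from GENCODE v44 on GRCh38 and promoter windows from RefSeq.

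The 9 genes and the wider lists were chosen with earlier results of these data known. Named by rule were the 9 genes, every tested gene of the other spectrin, ankyrin and 4.1 groups, the gene of each other group with the largest change in M1B26 against CT, the 5 genes most like ADD2, the genes at 0 in M1B26, and the 2 expressed genes nearest to ADD2 on each side. Some genes of these lists are not reported here. The cultures of a line were taken as independent, so p-values measure the spread between cultures and not between separate derivations of a line.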

Additional observations from a re-analysis of the deposited data

Results flagged for a closer look

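The change from CT was tested for a difference between the derived lines, as M1B26 against MC26 in edgeR. Of 25 named genes that were tested, 13 passed, and of the 8 partners 4 did, beside 39.5% of all 15717 genes tested. TMOD1, SLC2A1, NF2, FYN and CAPN2 had been named for their change in M1B26 against CT, which shares the M1B26 libraries with this test. ADD3 differed by 0.54 on the log2 scale (edgeR adjusted p = 0.00142), and was called lower than CT in MC26 but not in M1B26. SPTAN1 differed by -0.35 and SPTBN1 by -0.44 (edgeR adjusted p = 0.00139 and 0.00127), both lower in M1B26. EPB41L1 differed by 0.70 (edgeR adjusted p = 9.08e-04), the fall from CT being the larger in MC26.

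Among the wider genes, SPTB differed by -3.12, EPB41L4B by -0.49, SLC2A1 by -0.55, NF2 by -0.28, CAPN2 by -0.46 and the neighbour TEX261 by -0.22, all lower in M1B26 than in MC26. The ankyrins were all higher in M1B26, ANK1 by 1.16, ANK2 by 0.53 and ANK3 by 0.72. Of these, SPTB had at most 51 counts in a library and ANK1 at most 25 in the derived lines. The call of ANK1 was lost without CT replicate 3, M1B26 replicate 1 or 2 or MC26 replicate 1 or 2 (adjusted p = 0.0549 to 0.163), that of NF2 without MC26 replicate 1 (adjusted p = 0.0536), and that of TEX261 without M1B26 replicate 2 or MC26 replicate 1 (adjusted p = 0.0569 to 0.0574). The call of ANK1 was also lost by DESeq2 (adjusted p = 0.0597) and that of TEX261 with no filter on low counts (adjusted p = 0.0588).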

How the results depend on the processing

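All called changes of ADD3, SPTAN1, SPTBN1, EPB41, EPB41L1 and EPB41L2 kept their direction and call in all 16 alternatives. The call of DMTN in MC26 against CT was lost in some alternatives, at the values given above. DMTN gained calls in the other comparisons under some settings, and so did ADD1, which had no call in the main fit. Deviations of same-number libraries from their line means correlated at r = -0.17 to 0.36 over 9 pairs, 3 of them over 0.1. So few libraries cannot settle whether the replicate numbers pair the cultures. With a replicate block 5879, 7513 and 6009 genes and 6, 5 and 4 partners changed for MC26 against CT, then M1B26 against CT, then M1B26 against MC26. The block ended the calls of SPTBN5 against CT in both lines (adjusted p = 0.0830 in MC26 and 0.0840 in M1B26) and made one of SPTB in M1B26 (0.0353). Leaving out each library in turn gave 4524 to 6127, 6282 to 7941 and 4503 to 7166 genes and 5 to 6, 5 to 6 and 4 to 5 partners. The M1B26 to CT ratio of adducin CPM, 0.830, was 0.776 with total counts, 0.855 per kb, and 0.823 to 0.834 leaving out a library. The genes at 0 in M1B26 numbered 3 at a minimum of 20 counts.

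Sign changes concerned differences that were not called, and the cause was not tested. With total counts, the log2 change in MC26 against CT was -0.037 for ADD1, -0.063 for CAPN2 and -0.063 for TEX261, in M1B26 against CT -0.077 for ADD3 and -0.0051 for ANK2, and in M1B26 against MC26 -0.01 for EPB41L2 and -0.007 for TGFA. SPTBN1 in MC26 against CT was 0.0005 with no filter and 0.0036 with DESeq2. In M1B26 against MC26, EPB41L2 was -0.0002 with RLE factors, -0.0002 with 6 libraries and -0.0005 with DESeq2, and TGFA was -0.0001 with DESeq2. Leaving out a library gave, in MC26 against CT, -0.032 to 0.045 for SPTBN1, -0.096 to 0.080 for EPB41L5, -0.064 to 0.12 for CAPN2 and -0.029 to 0.054 for TEX261, in M1B26 against CT -0.029 to 0.094 for ADD3 and -0.011 to 0.19 for ANK2, and in M1B26 against MC26 -0.059 to 0.070 for EPB41L2, -0.083 to 0.31 for SPTBN5, -0.42 to 0.16 for EPB41L4A, -0.0073 to 0.079 for FAM136A and -0.13 to 0.14 for TGFA.

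The limit of detection was 3 counts per library, and the spread rests on 3 cultures per line. Alternatives at 20 counts and at up to 3 M1B26 counts were chosen after seeing the data.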
